A study of Mus musculus with 12 samples.

Results

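Chemokines are small secreted or membrane-bound proteins that guide moving leukocytes, and chemokine receptors are the G protein-coupled receptors on those cells that read them. The genes described here are 57 of the 23284 symbols in the deposited count table, all of them named Ccl, Cxcl, Ccr or Cxcr with a number, or Cx3cl1, Cx3cr1, Xcl1 or Xcr1. They comprise 39 ligands and 18 receptors, of which 21 ligands and 13 receptors, 34 in all, passed the filter on low counts that left 14832 genes for testing. They were measured in 12 libraries of polyadenylated RNA from whole fibrocartilage of the mandibular condyle, which forms the joint surface of the lower jaw. All mice were female, of the C57BL/6 strain, ovariectomized at 16 weeks and sampled at 17 weeks, so every group lacked its ovaries. In the 1 week between, a pellet released either placebo or 17β-estradiol (E2), of which it held 0.01 mg meant for release over 60 days. The groups were wild-type (WT) with placebo (n = 2), WT with E2 (n = 3), ERalphaKO with placebo (n = 4) and ERalphaKO with E2 (n = 3). ERalphaKO mice lack estrogen receptor alpha, encoded by Esr1, and the labels do not describe the allele. The labels also do not state that replicates were separate animals, so p-values measure only the spread between these samples. The design asks how E2 changes expression in the condyle and whether it does so through the receptor.

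Most ligands bind several receptors and most receptors several ligands. Ccl2, Ccl7 and Ccl12 draw monocytes through Ccr2, while Ccl3, Ccl4 and Ccl5 draw macrophages and T cells, and Cx3cr1 marks monocytes and tissue macrophages. In bone and cartilage, Cxcl12 from stromal cells holds Cxcr4-bearing blood-forming cells in the marrow, and osteoclasts, which are of the macrophage lineage, carry Ccr1 and make Ccl9.

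Libraries held 9696434 to 28750636 counts, and 3 counts corresponded to 0.110 to 0.315 CPM (counts scaled to library size, with trimmed-mean-of-M-values factors). Esr1 stood at 8.52 to 17.5 CPM in the 5 WT libraries and at 3.65 to 5.78 CPM in the 7 ERalphaKO libraries. Fibrocartilage markers such as Col1a1, Acan and Prg4 summed to 64942 to 104138 CPM, and markers of osteoclasts to 5074.5 to 7487 CPM. Marker sums of other cells varied more: 12 granulocyte markers summed to 3.72 to 2433 CPM in 10 libraries, to 17193 CPM in ERalphaKO placebo replicate 3 and to 7278 CPM in ERalphaKO E2 replicate 1. The other granulocyte marker on the list, Mmp9, is also made by osteoclasts, stood at 1621 to 2678 CPM and is left out of these sums. Skeletal muscle markers summed to 9.86 to 7038 CPM. In RNA from whole tissue, fewer cells of a type and less RNA per cell cannot be told apart.

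Per length of transcript, the highest mean levels over the 12 libraries were those of Cxcl12 at 34.4 RPKM (CPM per kilobase of exon, with GENCODE M21 lengths), Cxcl14 at 33.9 RPKM, Ccr1 at 27.5 RPKM and Cxcr7 at 26.8 RPKM. Cxcr4 followed at 16.9 RPKM and Ccl9 at 16.2 RPKM. These are ligands made by stroma (Cxcl12 and Cxcl14), both receptors of Cxcl12 (Cxcr4 and Cxcr7), and a ligand and receptor of osteoclasts and myeloid cells (Ccl9 and Ccr1). Counts of Cxcl12 alone made up 15.26% to 49.81% of all CPM of the 34 tested genes. At the other end, 8 ligands had 0 counts in every library: Ccl1, Ccl19, Ccl21a, Ccl21b, Ccl21c, Ccl26, Ccl27b and Ccl28. With 0 counts, a level of up to 0.110 to 0.315 CPM, depending on the library, could have been missed, counting error alone considered. A further 10 ligands and 5 receptors had counts but too few to test. Among these the highest totals over 12 libraries were 63 counts for Ccl22, a ligand of Ccr4, and 61 counts for Xcr1, a receptor of cross-presenting dendritic cells. Cxcl5, Ccr4, Cxcl2, Cxcr1, Cxcl11, Ccl17, Xcl1, Ccr6, Cxcl17, Ccr8, Cxcl3, Ccl20 and Cxcl15 had totals of 1 to 26 counts. Among the 39 ligands, only Cxcl1 of those that draw neutrophils through Cxcr2 was testable, while Cxcl2, Cxcl3, Cxcl5 and Cxcl15 were not. Transcripts of Ccl27a shared 4.38% of their 100-base windows with those of Ccl27b, which shared 40.18% in turn. Ccl21a and Ccl21b shared 15.43% and 39.27%, and Cxcl2 and Cxcl3 shared 3.05% and 1.88%. Counts of these genes are uncertain, the 0 counts of Ccl27b and of the Ccl21 genes included.

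**Figure D1:**
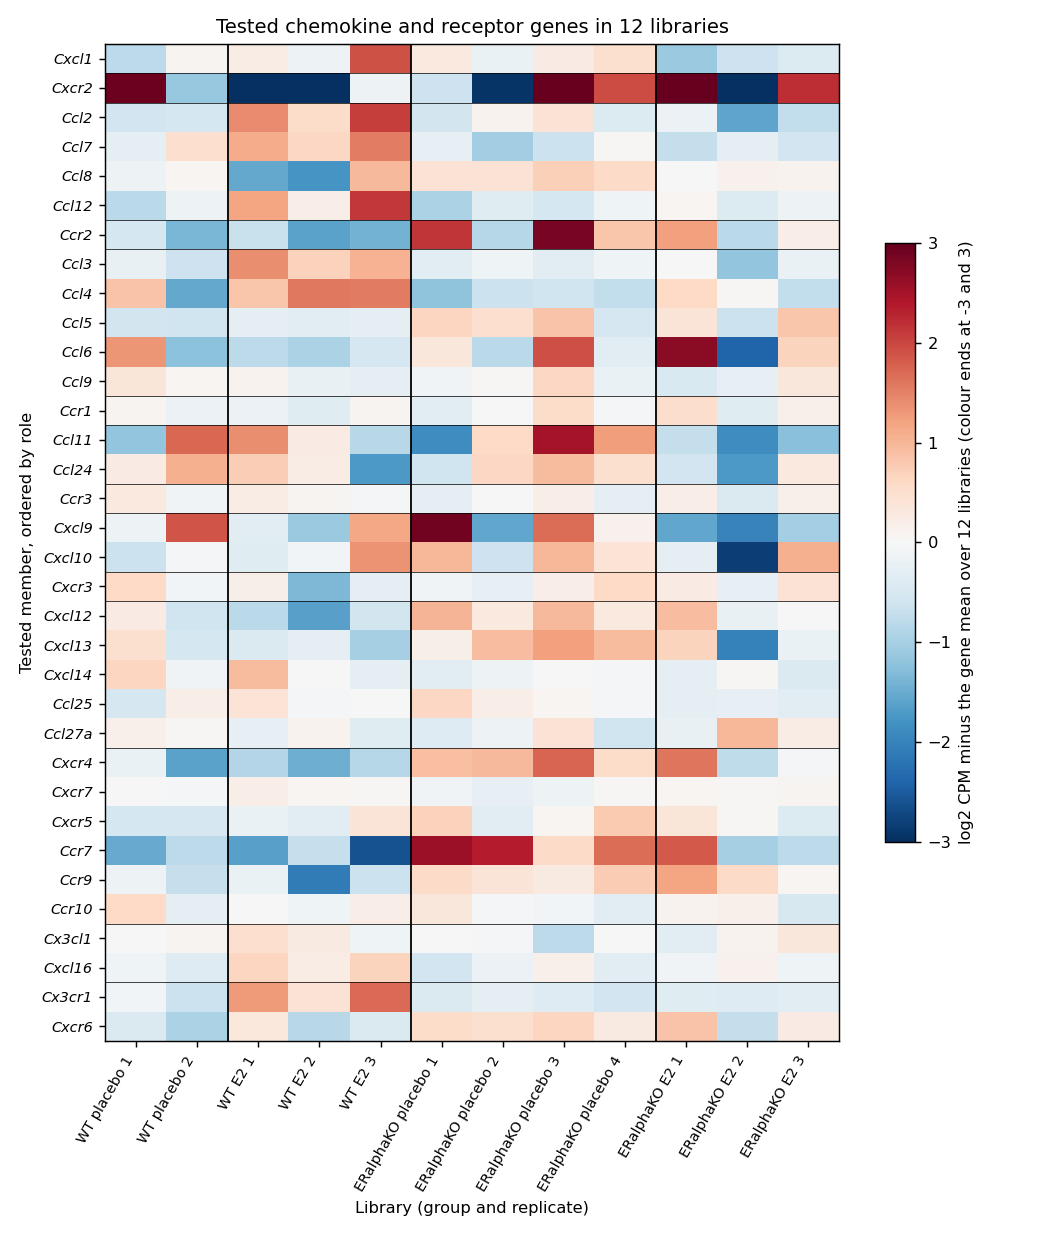
Colour gives log2 CPM minus the mean of that gene over 12 libraries, for the 34 tested chemokine and receptor genes (vertical, ordered by role) in each library (horizontal, by group and replicate), ending at -3 and 3. Ccl2, Ccl3, Ccl7, Ccl12, Cx3cr1 and Cxcl16 are higher in the 3 WT E2 libraries than in the 9 others, and Cxcr2 runs across nearly the whole scale within both ERalphaKO groups.

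Cx3cr1, a receptor of monocytes and tissue macrophages, was lower in ERalphaKO than in WT mice under E2, and none of the other genes described here passed the test in any comparison. Cx3cr1 stood at 25.9 and 17.5 CPM in WT placebo, 66.6, 36.8 and 89.6 CPM in WT E2, 20.2, 22.8, 21.0 and 18.4 CPM in ERalphaKO placebo and 21.4, 21.0 and 21.5 CPM in ERalphaKO E2. The 3 WT E2 libraries lay above the 9 others, which stayed between 17.5 and 25.9 CPM. Cx3cr1, the receptor of the membrane-bound ligand Cx3cl1, fell by 1.59 ± 0.27 on the log2 scale from WT E2 to ERalphaKO E2, or 3.02-fold (edgeR quasi-likelihood test, Benjamini-Hochberg adjusted p = 0.0181 over 14832 genes). This was 1 of 34 members, or 2.94%, against 0.647% of all tested genes called lower and 1.1% called in either direction. DESeq2 called 4 members lower in this comparison, Ccl2, Ccl3, Ccl7 and Cx3cr1, or 11.8% against 1.7% of all genes with a DESeq2 adjusted p. Before adjustment, p was under 0.05 for 7 members with lower values (20.6% against 5.83% of all genes) and 5 with higher values (14.7% against 5.68%). Values did not overlap for 9 members that were lower (26.5% against 8.94%) and 3 that were higher (8.82% against 6.97%). The edgeR call depended on single libraries. Without WT E2 replicate 1 or ERalphaKO E2 replicate 1, 2 or 3, the adjusted p of Cx3cr1 was 0.0741, 0.0920, 0.0630 and 0.0892, while without WT E2 replicate 3 it was 0.0455. Without both ERalphaKO libraries highest in granulocyte markers the log2 fold change was -1.58 (adjusted p = 0.0869). The call also ended with only the groups compared in the fit (-1.59, adjusted p = 0.0849).

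The contrast of E2 with placebo within WT shares the WT E2 libraries with the comparison above, so its values are given beside those of that comparison and not as separate evidence. For Cx3cr1 the log2 fold change with E2 in WT was 1.57 ± 0.30 (edgeR adjusted p = 0.0616). It did not pass the threshold, and no member did in edgeR, against 0.458% of all genes (0.371% higher and 0.0876% lower), while DESeq2 called 4 members higher (Ccl2, Ccl12, Cx3cr1 and Cxcl16), or 12.1% of 33 against 1.08% of all genes with a DESeq2 adjusted p. Before adjustment, p was under 0.05 for 6 members with higher values under E2, or 17.6% of 34, against 4.42% of all genes, and for 0 members with lower values, against 3.73% of all genes. Between WT E2 and WT placebo, 9 members had higher values with no overlap (26.5% against 13.2% of all genes) and 0 had lower values with no overlap (against 13.7%). The 6 members with p under 0.05 were also the members whose 3 WT E2 libraries lay above all 9 other libraries, which 2.3% of all genes did. They were the receptor Cx3cr1, the ligands Ccl2, Ccl7 and Ccl12 of Ccr2, the inflammatory ligand Ccl3, and the membrane-bound ligand Cxcl16. No member had its WT E2 libraries below all others, against 1.53% of all genes. In all 6 members WT E2 replicate 2 was the lowest of the 3 WT E2 libraries, and in 5 of 6 replicate 3 was the highest. Leaving out WT E2 replicate 2, Cx3cr1 was called for E2 in WT at a log2 fold change of 1.85 (edgeR adjusted p = 0.00256), as was Ccl12 at 2.23 (edgeR adjusted p = 0.0455). This omission also raised the edgeR calls over all genes from 0.458% to 0.886%. The same omission added Ccl2 at -2.68 (edgeR adjusted p = 0.0263) and Ccl12 at -1.93 (edgeR adjusted p = 0.0349) to the calls for genotype under E2. There the calls over all genes rose from 1.1% to 1.6%. The median log2 fold change over the 34 members was -0.06 for E2 in WT, against -0.0043 over all genes, and -0.06 for genotype under E2, against -0.0031.

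**Figure D2:**
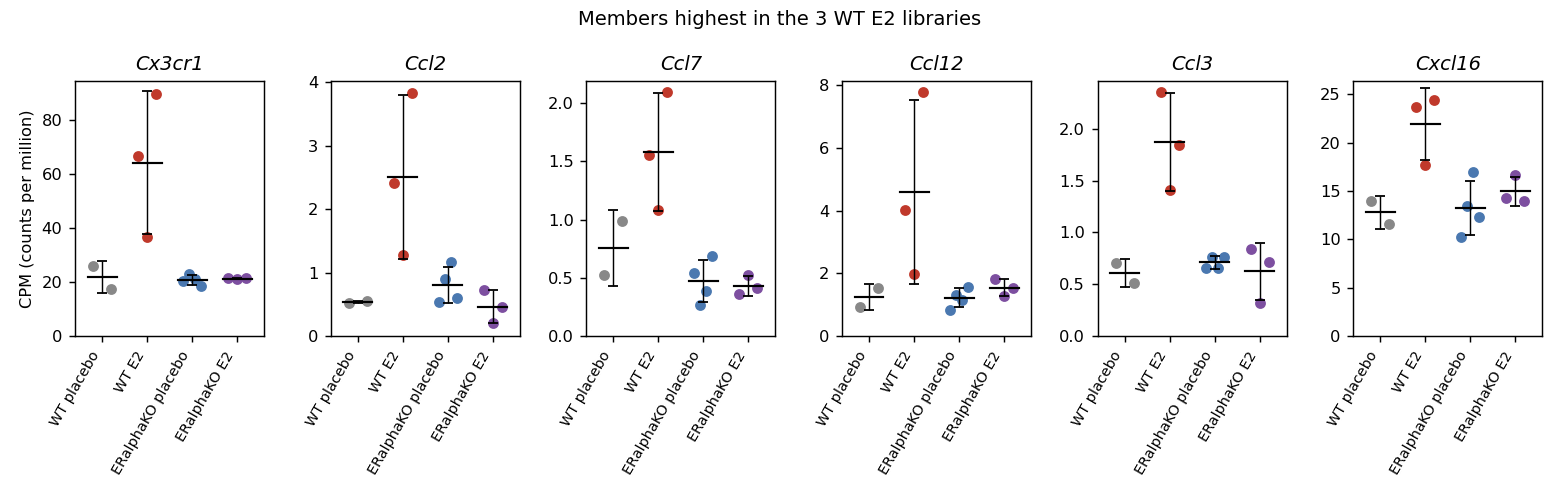
Points give CPM (vertical) in each library of the 4 groups (horizontal) for the 6 members whose WT E2 libraries were above all others. Horizontal lines are group means with SD (n = 2, 3, 4 and 3 from left to right), and in each of the 6 panels the lowest WT E2 point is above the highest point of the other 3 groups.

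The ligands that draw monocytes through Ccr2 (Ccl2, Ccl7 and Ccl12) shared this distribution, and Ccl8, listed with them by role, did not. Ccl2 stood at 0.528 and 0.549 CPM in WT placebo, 2.41, 1.27 and 3.84 CPM in WT E2, 0.539, 0.902, 1.16 and 0.603 CPM in ERalphaKO placebo and 0.723, 0.210 and 0.460 CPM in ERalphaKO E2. It was counted 2 to 75 times per library, and its highest value outside WT E2, in ERalphaKO placebo replicate 3, approached the lowest WT E2 value. Log2 fold changes of Ccl2 were 2.20 ± 0.57 (edgeR adjusted p = 0.205) for E2 in WT and -2.36 ± 0.51 (edgeR adjusted p = 0.0594) for ERalphaKO against WT under E2. Ccl7 stood at 0.528 and 0.989 CPM in WT placebo, 1.56, 1.08 and 2.10 CPM in WT E2, 0.539, 0.271, 0.387 and 0.684 CPM in ERalphaKO placebo and 0.361, 0.526 and 0.409 CPM in ERalphaKO E2. Its WT placebo replicate 2 was close to the lowest WT E2 library. For Ccl7 the log2 fold changes were 1.03 ± 0.45 (edgeR adjusted p = 0.602) for E2 in WT and -1.88 ± 0.43 (edgeR adjusted p = 0.0779) for genotype under E2. Ccl12 stood at 0.939 and 1.54 CPM in WT placebo, 4.01, 1.98 and 7.78 CPM in WT E2, 0.838, 1.31, 1.16 and 1.57 CPM in ERalphaKO placebo and 1.81, 1.26 and 1.53 CPM in ERalphaKO E2. For this ligand ERalphaKO E2 replicate 1 nearly reached WT E2 replicate 2, and WT E2 replicate 3 was by far the highest. The log2 fold changes of Ccl12 were 1.87 ± 0.52 (edgeR adjusted p = 0.262) for E2 in WT and -1.57 ± 0.45 (edgeR adjusted p = 0.17) for genotype under E2. Ccl8 stood at 2.93 and 3.41 CPM in WT placebo, 1.05, 0.894 and 6.50 CPM in WT E2, 4.43, 4.47, 5.38 and 4.95 CPM in ERalphaKO placebo and 3.31, 3.57 and 3.53 CPM in ERalphaKO E2. Within WT E2, replicates 1 and 2 held the lowest Ccl8 values of all 12 libraries and replicate 3 the highest. With replicate 3 the log2 fold changes of Ccl8 were -0.18 ± 0.66 (edgeR adjusted p = 0.972) for E2 in WT and 0.30 ± 0.59 (edgeR adjusted p = 0.911) for genotype under E2. Without it they were -1.70 ± 0.21 (edgeR adjusted p = 0.0192) and 1.83 ± 0.20 (edgeR adjusted p = 0.00386), so the direction for genotype under E2 was the opposite of that of Ccl2, Ccl7 and Ccl12.

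The receptor of Ccl2, Ccl7 and Ccl12, which is Ccr2, carried by classical monocytes, was not highest in WT E2. Ccr2 stood at 6.86 and 3.77 CPM in WT placebo, 6.22, 3.20 and 3.64 CPM in WT E2, 43.9, 5.46, 72.0 and 17.7 CPM in ERalphaKO placebo and 23.4, 5.57 and 11.3 CPM in ERalphaKO E2. ERalphaKO libraries were widely spread, and only replicates 1, 3 and 4 of the placebo group and replicates 1 and 3 of the E2 group were above every WT library. The log2 fold changes of Ccr2 were -0.28 ± 0.90 (edgeR adjusted p = 0.967) for E2 in WT, 2.72 ± 0.94 (edgeR adjusted p = 0.457) for genotype under placebo and 1.64 ± 0.81 (edgeR adjusted p = 0.478) for genotype under E2.

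Of the inflammatory CC ligands, Ccl3, made by activated macrophages, was highest in WT E2. Ccl3 stood at 0.704 and 0.513 CPM in WT placebo, 2.36, 1.41 and 1.84 CPM in WT E2, 0.658, 0.767, 0.658 and 0.764 CPM in ERalphaKO placebo and 0.843, 0.315 and 0.716 CPM in ERalphaKO E2. All 9 libraries outside WT E2 were at 0.843 CPM or less. Its log2 fold changes were 1.62 ± 0.40 (edgeR adjusted p = 0.17) for E2 in WT and -1.52 ± 0.35 (edgeR adjusted p = 0.076) for genotype under E2. Ccl4 stood at 0.821 and 0.0733 CPM in WT placebo, 0.803, 1.41 and 1.38 CPM in WT E2, 0.120, 0.226, 0.232 and 0.201 CPM in ERalphaKO placebo and 0.662, 0.420 and 0.204 CPM in ERalphaKO E2. The WT E2 libraries of Ccl4, another ligand of activated macrophages, were above all ERalphaKO libraries, but WT placebo replicate 1 was within their range. Its log2 fold changes were 1.51 ± 0.76 (edgeR adjusted p = 0.645) for E2 in WT and -1.48 ± 0.68 (edgeR adjusted p = 0.437) for genotype under E2. Ccl5 stood at 0.235 and 0.220 CPM in WT placebo, 0.301, 0.282 and 0.307 CPM in WT E2, 0.658, 0.586, 0.775 and 0.241 CPM in ERalphaKO placebo and 0.542, 0.210 and 0.767 CPM in ERalphaKO E2. Ccl5, made largely by T cells, had low values in all 5 WT libraries. Its log2 fold changes were 0.38 ± 0.61 (edgeR adjusted p = 0.924) for E2 in WT and 1.29 ± 0.57 (edgeR adjusted p = 0.557) for genotype under placebo. Ccl9 stood at 61.3 and 49.9 CPM in WT placebo, 51.3, 41.1 and 38.8 CPM in WT E2, 44.5, 48.7, 73.4 and 41.2 CPM in ERalphaKO placebo and 34.9, 40.2 and 60.1 CPM in ERalphaKO E2. Ccl9 overlapped between groups in every comparison, with log2 fold changes of -0.34 ± 0.27 (edgeR adjusted p = 0.81) for E2 in WT and 0.05 ± 0.24 (edgeR adjusted p = 0.977) for genotype under E2.

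Ccr1, the receptor of Ccl3, Ccl5, Ccl6 and Ccl9 found on osteoclasts and myeloid cells, had no WT E2 value above all other libraries. Ccr1 stood at 80.8 and 67.5 CPM in WT placebo, 67.3, 59.2 and 80.4 CPM in WT E2, 61.5, 75.9, 112 and 74.5 CPM in ERalphaKO placebo and 111, 59.6 and 84.9 CPM in ERalphaKO E2. Groups overlapped in every comparison, and both libraries highest in granulocyte markers were the highest for Ccr1. The log2 fold changes of Ccr1 were -0.10 ± 0.27 (edgeR adjusted p = 0.961) for E2 in WT and 0.30 ± 0.25 (edgeR adjusted p = 0.716) for genotype under E2.

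Among the membrane-bound ligands and their receptors, Cxcl16, a ligand of macrophages and dendritic cells that binds Cxcr6, was above all other libraries in WT E2, by a narrow margin. Cxcl16 stood at 14.0 and 11.6 CPM in WT placebo, 23.7, 17.7 and 24.4 CPM in WT E2, 10.2, 13.5, 17.0 and 12.3 CPM in ERalphaKO placebo and 14.3, 16.7 and 14.0 CPM in ERalphaKO E2. The lowest WT E2 library exceeded the highest other one only slightly. For Cxcl16 the log2 fold changes were 0.78 ± 0.21 (edgeR adjusted p = 0.247) for E2 in WT and -0.55 ± 0.19 (edgeR adjusted p = 0.268) for genotype under E2. Cx3cl1 stood at 43.5 and 46.1 CPM in WT placebo, 61.6, 52.3 and 39.9 CPM in WT E2, 43.3, 41.7, 25.2 and 43.7 CPM in ERalphaKO placebo and 34.0, 46.6 and 55.0 CPM in ERalphaKO E2. Cx3cl1, the ligand of Cx3cr1, overlapped between groups in every comparison, with log2 fold changes of 0.20 ± 0.26 (edgeR adjusted p = 0.905) for E2 in WT and -0.18 ± 0.23 (edgeR adjusted p = 0.852) for genotype under E2. Cxcr6 stood at 0.411 and 0.257 CPM in WT placebo, 0.753, 0.282 and 0.410 CPM in WT E2, 0.898, 0.857, 0.968 and 0.724 CPM in ERalphaKO placebo and 1.14, 0.315 and 0.716 CPM in ERalphaKO E2. Cxcr6, a receptor of resident T and natural killer cells, was higher in all 4 ERalphaKO placebo libraries than in both WT placebo libraries, at a log2 fold change of 1.38 ± 0.53 (edgeR adjusted p = 0.489).

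Markers of several cell types, macrophages among them, also included genes highest in WT E2. The 14 macrophage markers tested summed to 1102 to 1434 CPM in WT placebo, 1406 to 1875 CPM in WT E2, 1228 to 3143 CPM in ERalphaKO placebo and 1144 to 2281 CPM in ERalphaKO E2, and none was at 0 in all libraries. Lyz2, which is also found in granulocytes, stood at 1864 CPM in ERalphaKO placebo replicate 3 and 1098 CPM in ERalphaKO E2 replicate 1. These libraries were highest in granulocyte markers and gave the highest sums of their groups. In the other libraries Lyz2 stood at 210 to 400 CPM. For E2 in WT, 13 of 14 had positive log2 fold changes (median 0.73), and for genotype under E2 3 of 14 did (median -0.61), while 0 of 14 passed the edgeR test in either. For E2 in WT 9 had p under 0.05 before adjustment and DESeq2 called 5, while for genotype under E2 these counts were 8 and 6. In 5 of 14 (Emr1, Cd14, C1qb, C1qc and Msr1) the WT E2 libraries lay above all 9 others. The same held for 3 of 10 osteoblast and osteocyte markers (Ibsp, Sost and Alpl), 1 of 5 osteoclast markers (Calcr) and 1 of 11 fibrocartilage markers (Chad), against 2.3% of all genes. With the mean log2 CPM of the 14 markers as a covariate, the log2 fold change for genotype under E2 was -1.09 for Cx3cr1 (edgeR adjusted p = 0.0533), -1.41 for Ccl2, -1.17 for Ccl3, -2.01 for Ccl7, -1.03 for Ccl12 and -0.22 for Cxcl16 (adjusted p of 0.0844 or more for these 5). With 7 of these markers, picked to leave out those also found in granulocytes (Csf1r, Emr1, Mrc1, C1qa, C1qb, C1qc and Cd163), a covariate chosen after the data had been seen, the value of Cx3cr1 was -0.46 (edgeR adjusted p = 0.481), and that of Cxcl16 turned positive at 0.034 (edgeR adjusted p = 0.974). Those of Ccl2, Ccl3 and Ccl12 were -0.79, -0.86 and -0.34, while that of Ccl7, at -1.96, was as large as without a covariate. Under the same covariate the values for E2 in WT were 0.41 for Cx3cr1, 0.48 for Ccl2, 0.92 for Ccl3, 1.11 for Ccl7, 0.50 for Ccl12 and 0.17 for Cxcl16. With the 7 markers, edgeR calls over all genes for genotype under E2 went from 163 to 20. Emr1, C1qb and C1qc, which are in both covariates, were themselves highest in WT E2. These fits therefore cannot separate macrophage number from a change shared by these genes. The part of macrophage number in these differences was not tested.

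The sequences before the start sites of 3 of the 6 WT E2-high genes, those with a RefSeq entry (build GRCm38.p6), are shown because these genes shared a distribution over the libraries. RefSeq entries were found for 24 of the 34 tested members; Ccl2, Ccl7 and Cxcl16 had none. Each run gives the 250 bases before the start site, 5′ to 3′ on the strand of the gene, at chr9:120068297-120068546 (minus strand) for Cx3cr1, chr11:83649379-83649628 (minus strand) for Ccl3 and chr11:82101595-82101844 (plus strand) for Ccl12. Capitals mark matches on either strand to the core letters bound by PU.1 (GAGGAA), a factor of the myeloid lineage, or to the TATA core (TATAA); all other bases are in lower case.
Cx3cr1: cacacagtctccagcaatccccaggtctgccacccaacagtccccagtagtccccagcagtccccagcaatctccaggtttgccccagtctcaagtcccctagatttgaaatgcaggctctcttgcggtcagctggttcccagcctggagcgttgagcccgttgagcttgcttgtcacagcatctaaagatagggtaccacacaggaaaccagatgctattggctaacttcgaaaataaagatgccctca
Ccl3: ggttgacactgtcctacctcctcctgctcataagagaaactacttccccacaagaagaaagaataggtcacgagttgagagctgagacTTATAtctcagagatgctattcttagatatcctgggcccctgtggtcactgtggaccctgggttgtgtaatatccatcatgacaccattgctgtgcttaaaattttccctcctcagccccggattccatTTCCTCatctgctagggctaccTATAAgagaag
Ccl12: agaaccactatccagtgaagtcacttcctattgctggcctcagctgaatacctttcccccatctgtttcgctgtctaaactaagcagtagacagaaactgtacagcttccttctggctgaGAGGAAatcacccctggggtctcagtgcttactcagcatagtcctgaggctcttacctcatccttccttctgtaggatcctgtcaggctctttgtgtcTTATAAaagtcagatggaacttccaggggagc
In Ccl3 a PU.1 core began 33 bases and TATA cores 162 and 11 bases before the start, and in Ccl12 a PU.1 core began 130 bases and overlapping TATA cores, matched on both strands, 32 and 31 bases before it. The Cx3cr1 window held neither. Over windows of the 250 bases before the start, the PU.1 core was found in 9 of 24 members and in 23.3% of 32851 windows of all genes. The TATA core was found in 11 of 24 members and 22.8% of all windows. An estrogen response element in its palindromic form (GGTCA and TGACC with 3 bases between) was found in 0 of 24 members and 0.0639% of all windows. The NF-kB-like motif (GGGA and TTCC with 2 bases between) was found in Ccr3, Cxcl1 and Cxcl10, or 3 of 24, and in 1.21% of all windows, the AP-1 motif TGANTCA in 4 and 6.75%, the STAT motif TTCNNNGAA in 1 and 7.02%, and that of interferon-stimulated genes (GAAA and GAAA with 2 bases between) in 2 and 2.98%. A member counted if any of its windows held the motif, while the share over all genes is of single windows, so these are unlike measures. A match describes letters in a window, and a window without one says nothing about the factor.

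In ERalphaKO mice no member was called for E2 against placebo by edgeR or by DESeq2, and 0% of all genes were called by edgeR and 0.0337% by DESeq2. At p under 0.05 before adjustment there were 3 members: Cxcr7 with a log2 fold change of 0.18 ± 0.07 (edgeR adjusted p = 0.848), Ccl11 with -3.52 ± 1.499 (edgeR adjusted p = 0.852) and Cxcl9 with -3.44 ± 1.21 (edgeR adjusted p = 0.848). These were 2.94% of members higher, against 1.48% of all genes, and 5.88% lower, against 4.22%. No overlap between the groups was seen with higher values for Cxcr7 alone (2.94% against 2.58% of all genes) and with lower values for Ccl8, Ccl25 and Cxcl1 (8.82% against 3.09%). Of the 6 genes that were highest in WT E2, none had an adjusted p under 0.952, and Cx3cr1 stood at a log2 fold change of 0.05 ± 0.25 (edgeR adjusted p = 1). The median log2 fold change over the members was -0.14, against 0 over all genes. The genotypes' difference in E2 effect was called for 0 members by edgeR, against 0.0539% of all genes (0.00674% higher and 0.0472% lower in ERalphaKO), and for Cx3cr1 alone by DESeq2 (2.94% against 0.384% of all genes lower). Before adjustment 5 members had p under 0.05, all with a lower signed log2 fold change for E2 in ERalphaKO than in WT. These were 14.7% of members, against 3.45% of all genes in that direction and 3.32% in the other. Their log2 differences were -2.93 ± 0.75 (edgeR adjusted p = 0.353) for Ccl2, -1.52 ± 0.39 (adjusted p = 0.353) for Cx3cr1, -1.76 ± 0.52 (adjusted p = 0.493) for Ccl3, -1.54 ± 0.67 (adjusted p = 0.714) for Ccl12 and -2.62 ± 0.97 (adjusted p = 0.635) for Cxcl1. The median difference over the 34 members was -0.40, against -0.02 over all genes tested. Leaving out ERalphaKO E2 replicate 1 moved this median to -0.68.

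**Figure D3:**
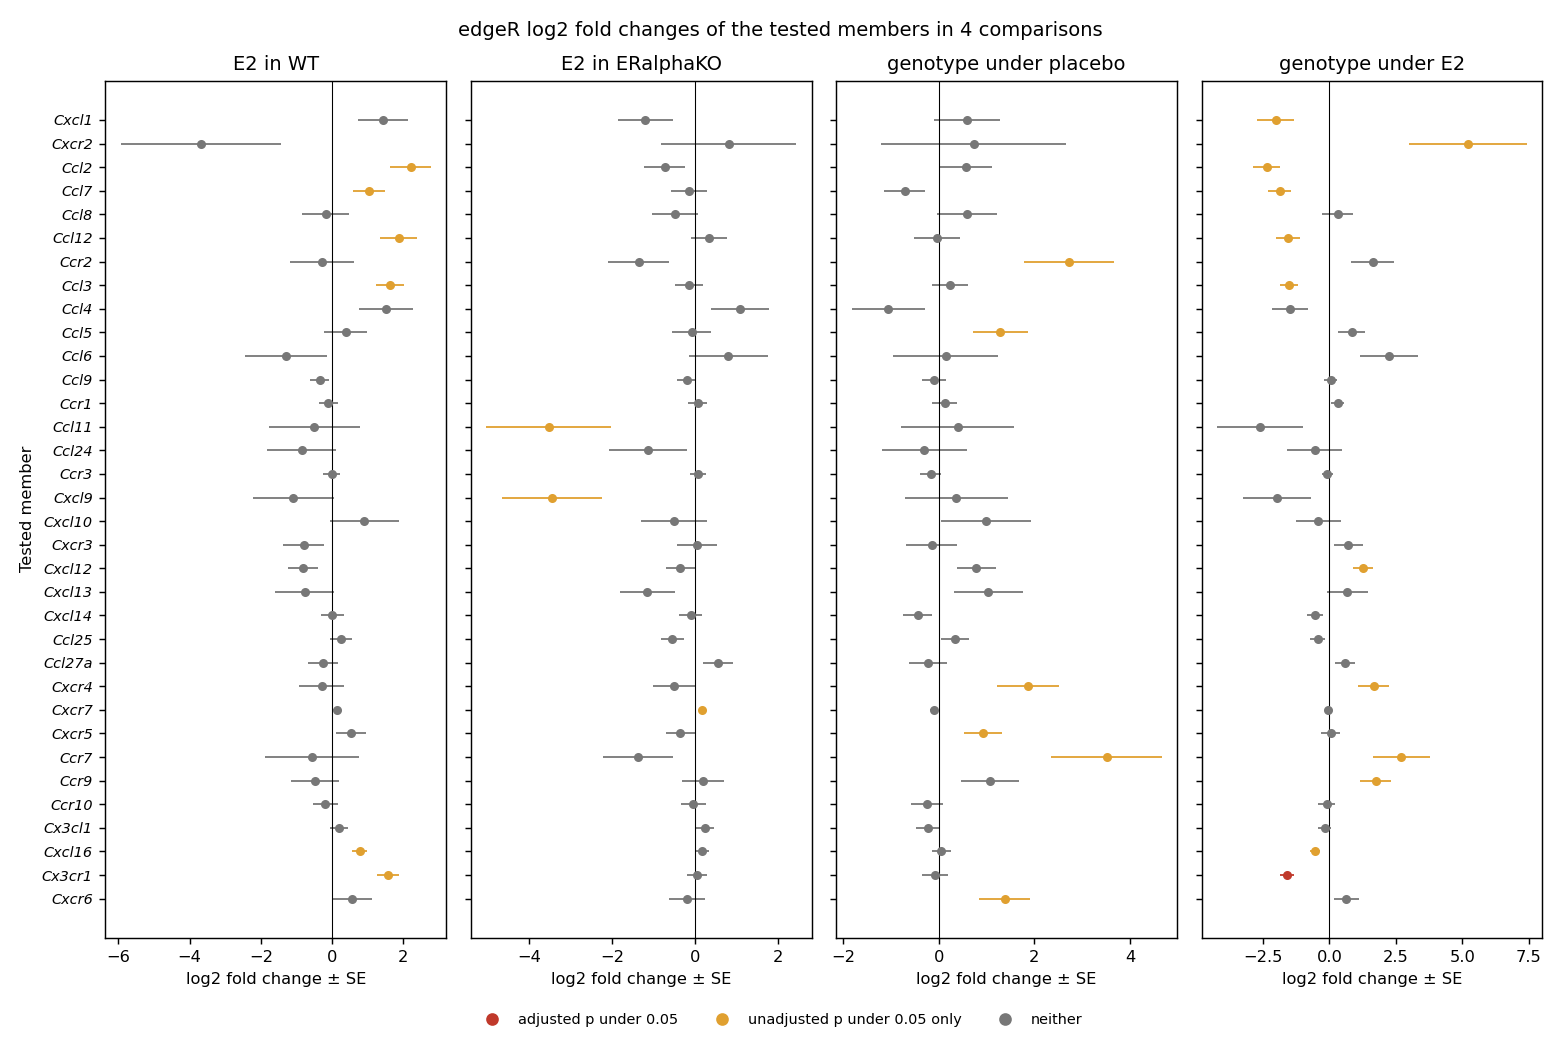
Points are edgeR log2 fold changes with standard errors (horizontal, a separate range in each panel) of the 34 tested members (vertical, ordered by role) in 4 comparisons. Red marks an adjusted p under 0.05, reached by Cx3cr1 for genotype under E2, orange an unadjusted p under 0.05 only, and grey neither.

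Several homing receptors had higher values in ERalphaKO placebo than in WT placebo, without passing the edgeR test. Ccr7 and Cxcr4 passed an adjusted p of 0.05 in the comparison deposited by the authors, described below. By edgeR 0 of 34 members were called for genotype under placebo, against 0.0135% of all genes, and DESeq2 also called 0, against 1.01%. Before adjustment, 6 members had p under 0.05 with higher values (17.6% against 5.07% of all genes) and 0 with lower values (against 3.86%). Values did not overlap between the groups for 8 members that were higher (Ccl5, Ccl8, Ccr7, Ccr9, Cxcl12, Cxcr4, Cxcr5 and Cxcr6, or 23.5% against 10.5% of all genes) and for 0 that were lower (against 10.6%). The median log2 fold change over the members was 0.29, against 0.01 over all genes, and -0.0044 without ERalphaKO placebo replicate 3.

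Cxcr4 stood at 19.9 and 7.51 CPM in WT placebo, 12.4, 8.28 and 12.7 CPM in WT E2, 43.1, 45.4, 77.7 and 33.5 CPM in ERalphaKO placebo and 69.5, 13.5 and 22.5 CPM in ERalphaKO E2. Cxcr4, which holds blood-forming cells and lymphocytes in the marrow, had ERalphaKO placebo values above every WT library. Its log2 fold changes were 1.88 ± 0.65 (edgeR adjusted p = 0.457) for genotype under placebo and 1.67 ± 0.58 (edgeR adjusted p = 0.276) under E2. Cxcl12 stood at 258 and 144 CPM in WT placebo, 123, 70.4 and 148 CPM in WT E2, 439, 265, 422 and 266 CPM in ERalphaKO placebo and 411, 186 and 219 CPM in ERalphaKO E2. For this ligand of Cxcr4, the main one of marrow stroma, the ERalphaKO values exceeded those of WT within each treatment, although ERalphaKO E2 replicates 2 and 3 were below WT placebo replicate 1. The log2 fold changes of Cxcl12 were 0.79 ± 0.41 (edgeR adjusted p = 0.615) for genotype under placebo and 1.26 ± 0.38 (edgeR adjusted p = 0.195) under E2. Cxcr7 stood at 82.9 and 78.5 CPM in WT placebo, 94.5, 85.1 and 84.1 CPM in WT E2, 76.6, 68.7, 74.0 and 83.5 CPM in ERalphaKO placebo and 85.1, 84.2 and 87.3 CPM in ERalphaKO E2. Cxcr7, the scavenging receptor of Cxcl12, had a narrow range over all 12 libraries, with a log2 fold change of -0.09 ± 0.08 (edgeR adjusted p = 0.797) for genotype under placebo.

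Ccr7 stood at 0.117 and 0.257 CPM in WT placebo, 0.1004, 0.282 and 0 CPM in WT E2, 3.53, 3.02, 0.814 and 1.85 CPM in ERalphaKO placebo and 2.11, 0.210 and 0.256 CPM in ERalphaKO E2. Ccr7 guides dendritic cells and T cells to lymph nodes, and its WT values were at or near the level of 3 counts. In ERalphaKO all 4 placebo libraries and E2 replicate 1 were higher, while E2 replicates 2 and 3 were within the WT range. The log2 fold changes of Ccr7 were 3.51 ± 1.15 (edgeR adjusted p = 0.457) for genotype under placebo and 2.71 ± 1.08 (edgeR adjusted p = 0.361) under E2. Cxcr5 stood at 1.17 and 1.21 CPM in WT placebo, 1.51, 1.37 and 2.30 CPM in WT E2, 2.87, 1.35, 1.82 and 3.06 CPM in ERalphaKO placebo and 2.29, 1.79 and 1.28 CPM in ERalphaKO E2. Cxcr5, a receptor of B cells, was higher in the 4 ERalphaKO placebo libraries than in both WT placebo libraries, at a log2 fold change of 0.93 ± 0.40 (edgeR adjusted p = 0.543). Cxcl13 stood at 0.469 and 0.183 CPM in WT placebo, 0.201, 0.235 and 0.102 CPM in WT E2, 0.359, 0.677, 0.852 and 0.684 CPM in ERalphaKO placebo and 0.542, 0 and 0.256 CPM in ERalphaKO E2. Its ligand Cxcl13 overlapped between groups in every comparison, with a log2 fold change of 1.04 ± 0.73 (edgeR adjusted p = 0.724) for genotype under placebo. Ccr9 stood at 0.469 and 0.293 CPM in WT placebo, 0.452, 0.0471 and 0.307 CPM in WT E2, 0.838, 0.722, 0.658 and 0.965 CPM in ERalphaKO placebo and 1.33, 0.841 and 0.562 CPM in ERalphaKO E2. Ccr9, a receptor of thymocytes and gut-homing T cells, was the only member whose 7 ERalphaKO libraries lay above all 5 WT libraries (2.94% against 0.708% of all genes), and no member lay below (against 0.654%). Its log2 fold changes were 1.08 ± 0.61 (edgeR adjusted p = 0.647) for genotype under placebo and 1.75 ± 0.59 (edgeR adjusted p = 0.254) under E2. Ccl25 stood at 1.11 and 1.91 CPM in WT placebo, 2.21, 1.55 and 1.64 CPM in WT E2, 2.57, 1.89, 1.70 and 1.57 CPM in ERalphaKO placebo and 1.33, 1.37 and 1.28 CPM in ERalphaKO E2. Ccl25, the ligand of Ccr9, had log2 fold changes of 0.34 ± 0.30 (edgeR adjusted p = 0.789) and -0.44 ± 0.29 (edgeR adjusted p = 0.617) in the same comparisons.

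Lymphocyte marker sums were also higher in ERalphaKO placebo than in WT. Of 11 lymphocyte markers, 7 passed the filter on low counts. These 7 summed to 10.5 to 20.6 CPM in the 5 WT libraries, where Cd4 alone stood at 8.719 to 16.593 CPM. They summed to 67.1 to 131 CPM in the 4 ERalphaKO placebo libraries, and to 85.4, 15.2 and 29.4 CPM in ERalphaKO E2 replicates 1 to 3. For genotype under placebo 7 of 7 had positive log2 fold changes (median 4.65) and 12 of 13 granulocyte markers did too (median 4.97), with 0 called by edgeR in either list. Before adjustment 5 lymphocyte markers had p under 0.05, and DESeq2 called 4. Of these, Cd79a, Cd79b and Ms4a1 are genes of B cells and Lck of T cells. Other genes of T cells on the list did not share this difference. Cd4 stood at 11.028 and 8.719 CPM in WT placebo and at 11.251 to 14.073 CPM in ERalphaKO placebo. Cd3d stood at 0.235 and 0.073 CPM in WT placebo and at 0, 0, 0.62 and 0 CPM in ERalphaKO placebo. Cd3e, Cd3g and Cd8a were at 0.465 CPM or less in ERalphaKO placebo. Of the granulocyte markers 4 had p under 0.05 (Ctsg, Elane, Mpo and Prtn3, which are genes of early granulocytes) and DESeq2 called 0. In ERalphaKO E2 Cxcr4 and Ccr7 were highest in replicate 1 and lowest in replicate 2, as were the sums of both lymphocyte and granulocyte markers. In ERalphaKO placebo Cxcr4 was highest in replicate 3, where the lymphocyte sum was lowest (67.1 CPM) and the granulocyte sum highest, and Ccr7 was lowest there. With granulocyte markers as a covariate no member was called for genotype under placebo. The same held without the covariate, so that count does not bear on these cells. The part of lymphocytes and granulocytes in the values of these receptors was not tested.

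**Figure D4:**
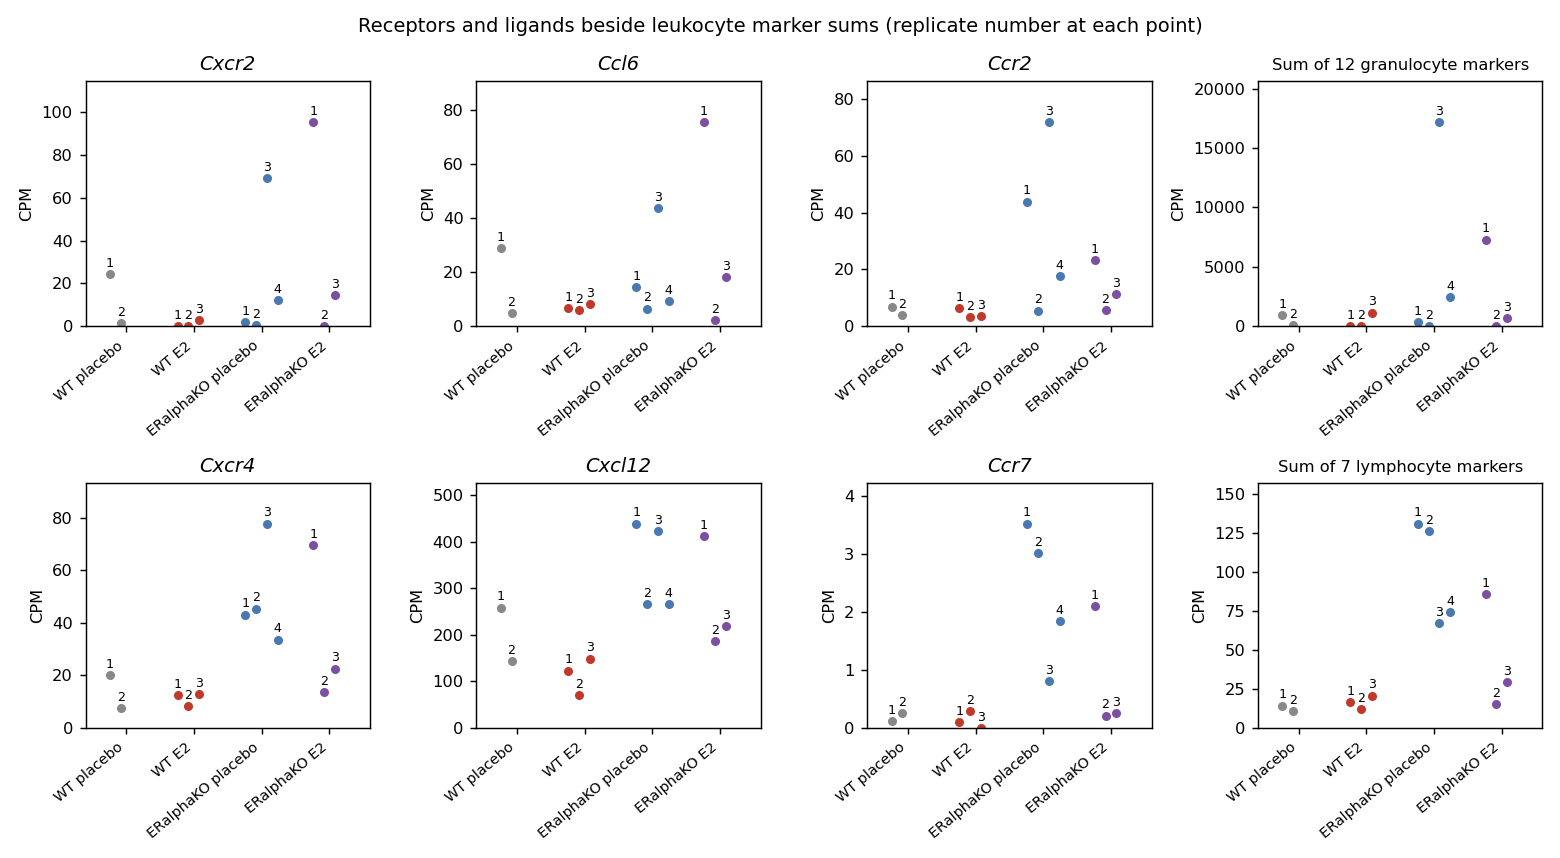
Points give CPM (vertical) in each library of the 4 groups (horizontal), with the replicate number at each point, for Cxcr2, Ccl6 and Ccr2 beside the sum of 12 granulocyte markers (without Mmp9), and for Cxcr4, Cxcl12 and Ccr7 beside the sum of 7 lymphocyte markers. Cxcr2 is highest in ERalphaKO E2 replicate 1 and ERalphaKO placebo replicate 3, the libraries with the highest granulocyte sums.

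Cxcr2, the receptor by which neutrophils leave the marrow and enter tissue, differed widely between libraries of the same group. Cxcr2 stood at 24.3 and 1.36 CPM in WT placebo, 0.150, 0.0941 and 2.77 CPM in WT E2, 1.97, 0.316, 69.1 and 12.3 CPM in ERalphaKO placebo and 95.5, 0.105 and 14.6 CPM in ERalphaKO E2. Its highest values stood in the libraries with granulocyte sums of 7278 and 17193 CPM, and WT placebo replicate 1, with a sum of 898 CPM, came next. WT E2 replicate 3 and ERalphaKO placebo replicate 4, with sums of 1138 and 2433 CPM, had lower Cxcr2 values than that library. For genotype under E2 the log2 fold change of Cxcr2 was 5.22 ± 2.22 (edgeR adjusted p = 0.404), and for E2 in WT it was -3.67 ± 2.25 (edgeR adjusted p = 0.745). Ccl6 stood at 29.0 and 4.84 CPM in WT placebo, 6.62, 5.88 and 8.04 CPM in WT E2, 14.5, 6.50, 43.9 and 9.17 CPM in ERalphaKO placebo and 75.8, 2.10 and 18.2 CPM in ERalphaKO E2. Ccl6, made by neutrophils and macrophages, was highest in the same libraries, with a log2 fold change of 2.24 ± 1.08 (edgeR adjusted p = 0.466) for genotype under E2. Cxcl1 stood at 0.176 and 0.403 CPM in WT placebo, 0.452, 0.330 and 1.69 CPM in WT E2, 0.479, 0.316, 0.465 and 0.563 CPM in ERalphaKO placebo and 0.120, 0.210 and 0.256 CPM in ERalphaKO E2. Cxcl1, a ligand of Cxcr2, was highest in WT E2 replicate 3, and its ERalphaKO E2 values lay below those of both ERalphaKO placebo and WT E2. The log2 fold changes of Cxcl1 were 1.43 ± 0.71 (edgeR adjusted p = 0.642) for E2 in WT, -1.19 ± 0.67 (edgeR adjusted p = 0.916) for E2 in ERalphaKO and -2.03 ± 0.69 (edgeR adjusted p = 0.258) for genotype under E2.

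Ligands induced by interferon and the receptor they share were low and scattered. Cxcl9 stood at 0.645 and 2.93 CPM in WT placebo, 0.552, 0.282 and 1.74 CPM in WT E2, 6.04, 0.180, 2.52 and 0.804 CPM in ERalphaKO placebo and 0.181, 0.105 and 0.307 CPM in ERalphaKO E2. Cxcl9 was highest in ERalphaKO placebo replicate 1, and its libraries overlapped between groups in every comparison. Its log2 fold change was -1.08 ± 1.14 (edgeR adjusted p = 0.876) for E2 in WT and -3.44 ± 1.21 (edgeR adjusted p = 0.848) for E2 in ERalphaKO. Cxcl10 stood at 0.352 and 0.586 CPM in WT placebo, 0.452, 0.565 and 1.69 CPM in WT E2, 1.32, 0.361, 1.32 and 0.845 CPM in ERalphaKO placebo and 0.482, 0 and 1.38 CPM in ERalphaKO E2. Cxcl10 overlapped between groups in every comparison, with a log2 fold change of 0.90 ± 0.98 (edgeR adjusted p = 0.88) for E2 in WT. Cxcr3 stood at 0.645 and 0.366 CPM in WT placebo, 0.452, 0.0941 and 0.307 CPM in WT E2, 0.359, 0.316, 0.465 and 0.644 CPM in ERalphaKO placebo and 0.482, 0.315 and 0.562 CPM in ERalphaKO E2. Cxcr3, the receptor of Cxcl9 and Cxcl10 on T cells, had log2 fold changes of -0.80 ± 0.58 (edgeR adjusted p = 0.803) for E2 in WT and -0.14 ± 0.53 (edgeR adjusted p = 0.963) for genotype under placebo.

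Eosinophil-directed genes and the remaining homeostatic ligands and receptors passed no test. Ccl11 stood at 0.0587 and 1.10 CPM in WT placebo, 0.853, 0.330 and 0.102 CPM in WT E2, 0, 0.451, 1.94 and 0.764 CPM in ERalphaKO placebo and 0.120, 0 and 0.0511 CPM in ERalphaKO E2. Ccl11, which attracts eosinophils through Ccr3, ranged from 0 to its highest value within ERalphaKO placebo alone. Its log2 fold change for E2 in ERalphaKO was -3.52 ± 1.499 (edgeR adjusted p = 0.852). With skeletal muscle markers as a covariate it was 0.19 (edgeR adjusted p = 1), and those markers summed to 15.0 to 7038 CPM in ERalphaKO placebo and 10.9 to 61.7 CPM in ERalphaKO E2. Ccl24 stood at 0.293 and 0.586 CPM in WT placebo, 0.452, 0.282 and 0 CPM in WT E2, 0.120, 0.406, 0.542 and 0.362 CPM in ERalphaKO placebo and 0.120, 0 and 0.307 CPM in ERalphaKO E2. Ccl24, of the same family, was at 0 counts in 2 of 12 libraries, with a log2 fold change of -1.13 ± 0.93 (edgeR adjusted p = 0.991) for E2 in ERalphaKO. Ccr3 stood at 6.98 and 5.24 CPM in WT placebo, 6.67, 6.03 and 5.43 CPM in WT E2, 4.67, 5.73, 6.59 and 4.71 CPM in ERalphaKO placebo and 6.57, 4.21 and 6.29 CPM in ERalphaKO E2. Ccr3 was steadier than its ligands, with a log2 fold change of -0.01 ± 0.24 (edgeR adjusted p = 0.996) for E2 in WT. Cxcl14 stood at 93.3 and 55.2 CPM in WT placebo, 115, 58.7 and 48.8 CPM in WT E2, 47.7, 53.9, 59.0 and 58.3 CPM in ERalphaKO placebo and 49.1, 60.6 and 44.3 CPM in ERalphaKO E2. Cxcl14, a ligand of epithelium and stroma, had log2 fold changes of 0.00 ± 0.33 (edgeR adjusted p = 1) for E2 in WT and -0.44 ± 0.31 (edgeR adjusted p = 0.724) for genotype under placebo. Ccl27a stood at 1.35 and 1.25 CPM in WT placebo, 1.00, 1.32 and 0.922 CPM in WT E2, 0.898, 1.08, 1.67 and 0.764 CPM in ERalphaKO placebo and 1.02, 2.52 and 1.43 CPM in ERalphaKO E2. Ccl27a had a log2 fold change of 0.55 ± 0.36 (edgeR adjusted p = 0.95) for E2 in ERalphaKO. Ccr10 stood at 2.171 and 1.14 CPM in WT placebo, 1.41, 1.27 and 1.64 CPM in WT E2, 1.80, 1.35, 1.32 and 1.09 CPM in ERalphaKO placebo and 1.51, 1.58 and 0.971 CPM in ERalphaKO E2. Ccr10, the receptor of Ccl27a, had -0.05 ± 0.30 (edgeR adjusted p = 1) in the same comparison.

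Genes of the wider pathway had no calls in edgeR. Atypical receptors take up chemokines without signalling. In each of the 5 comparisons edgeR called 0 of 6 atypical and related receptors (Darc, Ccbp2, Ccrl1, Ccrl2, Cmklr1 and Gpr182). It called 0 of 19 genes of receptor signalling such as Gnai2, Arrb2 and Dock2. It also called 0 of 11 genes that cut, shed or bind ligands, such as Dpp4 and Adam17, and 0 of 16 inducers such as Il1b and Nfkb1. Before adjustment, each of these lists had 0 to 2 genes with p under 0.05 in each comparison. DESeq2 called 1 gene of ligand processing, Dpp4, a protease that trims chemokines, for genotype under placebo and under E2, and 1 inducer, the myeloid transcription factor Irf8, for genotype under placebo. For E2 in WT the median log2 fold change was 0.27 for the atypical and related receptors and -0.0055 for receptor signalling. It was -0.05 for ligand processing and 0.07 for inducers, against -0.0043 for all genes. For genotype under E2 the medians were -0.12, 0.16, 0.01 and -0.06. The chemokines of platelets, Pf4 and Ppbp, and the chemokine-like Cklf lie outside the naming rule, and 0 of 3 were called by edgeR or DESeq2, with 1, Ppbp, at an unadjusted p under 0.05 for E2 in each genotype. Ppbp stood at 126 CPM and Pf4 at 35.5 CPM in ERalphaKO placebo replicate 3, and at 0.251 to 28.2 CPM and 5.26 to 12.2 CPM in the other libraries.

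In 3 of 4 comparisons more members passed an adjusted p of 0.05 in the authors' deposited tables than in edgeR. For WT E2 against WT placebo, the authors' deposited table gave log2 fold changes of 1.57 for Ccl2, 1.38 for Cx3cr1 and 0.74 for Cxcl16, all higher. These were 3 of 31 members with an adjusted p, where 1.75% of all genes passed. For ERalphaKO against WT under E2, the authors' deposited table gave -1.88 for Ccl2, -1.55 for Ccl7 and -1.51 for Cx3cr1, and 1.43 for Ccr2. Thus 3 were lower and 1 higher of 30 members with an adjusted p, where 3.75% of all genes passed. For ERalphaKO against WT under placebo, the authors' deposited table gave 2.26 for Ccr7 and 1.63 for Cxcr4. These were 2 of 35 members with an adjusted p, where 1.82% of all genes passed. DESeq2 as run here, over all 12 libraries, called neither of them and no other member in this comparison. Deposited fold changes could be smaller than those of edgeR, as for Cxcr2 for E2 in WT (-0.72 against -3.67), so their sizes are not compared here. For E2 in ERalphaKO no member passed in the authors' deposited table, as against 0.0494% of all genes.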

How the data were processed

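Polyadenylated RNA with integrity numbers of at least 9 was sequenced as 100-base reads, per the labels. Demultiplexing used bcl2fastq 2.17 and alignment used TopHat against mouse build mm9, per the submitters' processing notes. The TopHat version, counting tool, annotation, strand and treatment of reads with several matches are not given in the sources used here. Raw counts per gene symbol for 12 libraries were deposited by the authors. The authors' deposited comparison tables hold log2 fold changes with standard errors and p-values, with DESeq2 column names per the file headers; of these, 4 were used, and those of groups that differ in both genotype and treatment were not. The normalized table was not used.

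Genes were kept by the edgeR expression filter (minimum count 10). After scaling (TMM), edgeR 4.0.16 (R 4.3.3) fitted a quasi-likelihood model, with 1 mean per group over 12 libraries and 8 residual degrees of freedom. Benjamini-Hochberg adjustment ran over all genes tested, with a threshold of 0.05. The biological coefficient of variation was 25.9%. Values after ± on log2 fold changes are standard errors from the F statistic. CPM use TMM-scaled library sizes. Total counts of 9696434 to 28750636 per library set the precision of low values: 3 counts equalled 0.110 to 0.315 CPM, for counting error only, and no molecular identifiers are named in the sources used here. No replicates agreed within sampling noise (chi-square per degree of freedom of 18.1 or more). The test script was tested on simulated data.

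The members, marker lists and pathway lists were chosen with earlier results of these data known. Members were given with every value if their p was under 0.05 in any comparison or if they were among the 10 highest by mean CPM. They were also given if listed by role beside such a member as receptor or ligand, which took in every tested gene described. A gene that the naming rule matches, and some genes of the marker and pathway lists, are not reported here. Files use mm9 and the RefSeq sequences GRCm38.p6, so coordinates are given for the latter alone. Alternatives were DESeq2 1.42.0, median-ratio scaling, no count filter, omission of each library, a fit of the groups compared alone, marker covariates and a replicate block. Figures were drawn with matplotlib 3.10.9.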

Additional observations from a re-analysis of the deposited data

Results flagged for a closer look

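Cx3cl1, the membrane-bound ligand of Cx3cr1, stood at 25.2 CPM in ERalphaKO placebo replicate 3 and at 41.7 to 43.7 CPM in the other 3 libraries of that group. The gap was 0.89 of the range of the group, above the 95% critical value of Dixon's test for 4 samples. Among the 34 tested members it was the only one set apart in this way, and chance sets apart about 1 in 20 such groups. That library also had the highest sum of granulocyte markers, 17193 CPM without Mmp9, and the part of these cells in the value was not tested.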

How the results depend on the processing

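With 2 to 4 libraries per group the number of calls depended on single libraries and on the tool. Members called by edgeR for E2 in WT, 0, became 4 with DESeq2 and 1 with granulocyte markers as a covariate (with 81 over all genes). They became 0 to 2 when each library outside WT placebo was left out (with 20 to 131 over all genes). For genotype under E2 the 1 call became 4 with DESeq2 and 4 with macrophage markers as a covariate (Ccr1, Cxcl12, Cxcr2 and Cxcr4, while calls over all genes rose from 163 to 612). With granulocyte markers it became 2 (Ccl2 and Cx3cr1, with 208 over all genes). With each library outside WT placebo left out it became 0 to 3 (with 51 to 236 over all genes). It became 0 with both ERalphaKO libraries highest in granulocyte markers omitted, 0 with only the groups compared in the fit, and 0 with tissue macrophage markers as a covariate, an alternative added after the data had been seen. For the difference of the E2 effect, 0 calls became 1 with DESeq2 and 1 with granulocyte markers (Cxcr2, with 33 over all genes). They became 0 to 1 when each library outside WT placebo was left out (with 1 to 31 over all genes). Over all genes, DESeq2 called 247 where edgeR called 68 for E2 in WT, 5 where edgeR called 0 for E2 in ERalphaKO, 150 where edgeR called 2 for genotype under placebo, 497 where edgeR called 163 for genotype under E2, and 102 where edgeR called 8 for the difference. With each library left out, members without overlap between groups numbered 9 to 27 (E2 in WT, against 27% to 53.7% of all genes under the same omissions), 3 to 11 (E2 in ERalphaKO, against 5.65% to 15.7%), 8 to 18 (genotype under placebo, against 21.1% to 42.7%) and 11 to 19 (genotype under E2, against 15.9% to 33.6%), since smaller groups overlap less. Where an omission left 1 WT placebo library, it was assumed to vary like the other groups. With each library left out, the median ranged from -0.68 to -0.21 for the difference and from -0.0044 to 0.39 for genotype under placebo. A reversed sign was seen for Ccl11 for E2 in ERalphaKO with skeletal muscle markers as a covariate (0.19) and for Cxcl16 for genotype under E2 with tissue macrophage markers as a covariate (0.034); the cause was not tested. Replicate numbers were not taken to pair the samples: the 15 pairs of libraries that shared a number had correlations of -0.33 to 0.50, over 0.1 in 6 of 6 pairs for number 2, 2 of 6 for number 1 and 1 of 3 for number 3, and not every library correlated best with its own number. With the replicate block, 0 members were called in genotype under E2, with adjusted p = 0.0597 for Cx3cr1 (log2 fold change -1.54). Members below 1 CPM, such as Ccl2, Ccl3 and Ccr7 in most groups, rest on few counts.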
